A study of Mus musculus with 2 samples.

Results

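The focal adhesion genes Ptk2, Pxn, Bcar1, Tln1, Vcl, Ilk, Parva, Fermt2, Tns1 and Cav1, were followed across the cell types of the mouse thoracic aorta. They are 10 of the 18920 genes in each of 2 single-cell RNA libraries and were chosen by name as the kinase, adaptor and linker genes of cell adhesion to matrix. Both libraries were made from the root and ascending part of the aorta, taken at 16 weeks of age from Fbn1C1041G/+ mice. These mice model Marfan syndrome with 1 mutant allele of the fibrillin-1 gene, and no library of wild-type mice enters any comparison here. One library was made from mice given GLPG0187, which the labels call an integrin alpha-v inhibitor, and the other from mice given vehicle, each daily from week 6 to week 16. Each library was a single pool of male and female aortas, and how many animals each pool held is not stated in the labels. With 1 library per group there was no test of treatment, and treatment cannot be told apart from the animals or the preparation of each pool. A value per gene is the mean deposited depth-corrected value per cell. Levels of different genes are not compared.

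Integrins have no enzymatic activity of their own and signal through proteins that gather at their cytoplasmic tails. Talin (Tln1) and kindlin-2 (Fermt2) bind the tails and activate the receptor, vinculin (Vcl) and tensin 1 (Tns1) tie the complex to actin, and integrin-linked kinase (Ilk) forms a complex with PINCH proteins and alpha-parvin (Parva). Focal adhesion kinase (Ptk2) phosphorylates the scaffolds paxillin (Pxn) and p130Cas (Bcar1), and caveolin-1 (Cav1) builds the caveolae that sit beside adhesions in smooth muscle and endothelium.

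Many genes of the smooth muscle cytoskeleton are known to be driven by serum response factor through a DNA element called the CArG box, so the promoters of the members were searched for it on both strands. RefSeq promoter windows (build GRCm38.p6, 250 bases before to 50 bases after each start) were matched for 7 of the 10 genes; Ptk2, Pxn and Parva had no entry. A CArG box was found in the windows of 2 of these 7 genes, Vcl and Fermt2, against 488 of all 27025 genes with an entry (1.81%). Counted by window, 535 of all 32851 windows of that length held one (1.63%). The windows of Tns1, Tln1, Ilk, Bcar1 and Cav1 held none. The 90 bases that hold each box are printed for both genes with a match. Both genes had their highest level in smooth muscle, as given below, and so did Tns1, Tln1 and Ilk, which had no box. The Vcl stretch lies at chr14:20929148-20929237 on the plus strand and the Fermt2 stretch at chr14:45530226-45530315 on the minus strand, with the box in capitals.
Vcl: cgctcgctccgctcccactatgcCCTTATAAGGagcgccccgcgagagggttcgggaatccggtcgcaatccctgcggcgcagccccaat
Fermt2: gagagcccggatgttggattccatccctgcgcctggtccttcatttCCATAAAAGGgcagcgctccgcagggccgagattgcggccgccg
The box begins 227 bases before the start of Vcl and 204 bases before the start of Fermt2. The hexamer GGAATG, the core bound by TEAD factors, occurred in 1 of the members' 10 windows and in 14.7% of all windows. That window was of Vcl, with the hexamer 143 bases before its start. Among the other adhesion genes searched, a CArG box lay in the window of 1 of 20 actin linkers (Trip6) and of 1 of 7 partners of ILK and kindlins (Rsu1), and in none of the 9 kinases and phosphatases, 15 scaffold adaptors, 2 tensins and 7 caveola genes with an entry. A match describes the letters of the window and says nothing of binding in these cells.

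With doublets removed there were 4349 cells from GLPG0187-treated mice and 2945 from vehicle-treated mice. Pairs of values below are given in that order. Clusters were named from fixed markers as smooth muscle cell-like (SMC-like, 1669 and 836 cells), fibroblast-like (1058 and 869), macrophage-like (345 and 182) and endothelial-like (161 and 104). Cluster 1 (Prss35, Npy, Tbx20; 903 and 711 cells) and cluster 6 (Chad, Chil1, Comp; 175 and 195) met no naming rule and keep their numbers. Schwann-like (24 and 41) and dendritic-like cells (14 and 7) were too few for ratios. Clustering used all variable genes, so levels by class are a description. Values per cell summed to medians of 14942 and 14806, and the libraries shared 5 cell barcodes. SMC-like cells held a median of 4029 and 4137 detected genes, and macrophage-like cells 3177 and 3054.

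The orders given here are over the 6 classes with at least 50 cells in each library. Of the 10 genes, 5 (Tln1, Vcl, Ilk, Fermt2 and Tns1) had their highest mean in SMC-like cells in both libraries. The share of all genes highest in SMC-like cells was not counted, so this number has no background and describes these genes alone. Ptk2, Bcar1 and Cav1 were highest in endothelial-like cells, Pxn in macrophage-like cells and Parva in fibroblast-like cells. The few Schwann-like cells were above these leading classes for Ptk2 (1.58) and Bcar1 (0.667) in the GLPG0187 library and for Parva (1.56) in the vehicle library. When the cells were clustered without the members and the other adhesion genes, 5 members were again highest in SMC-like cells.

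**Figure D1:**
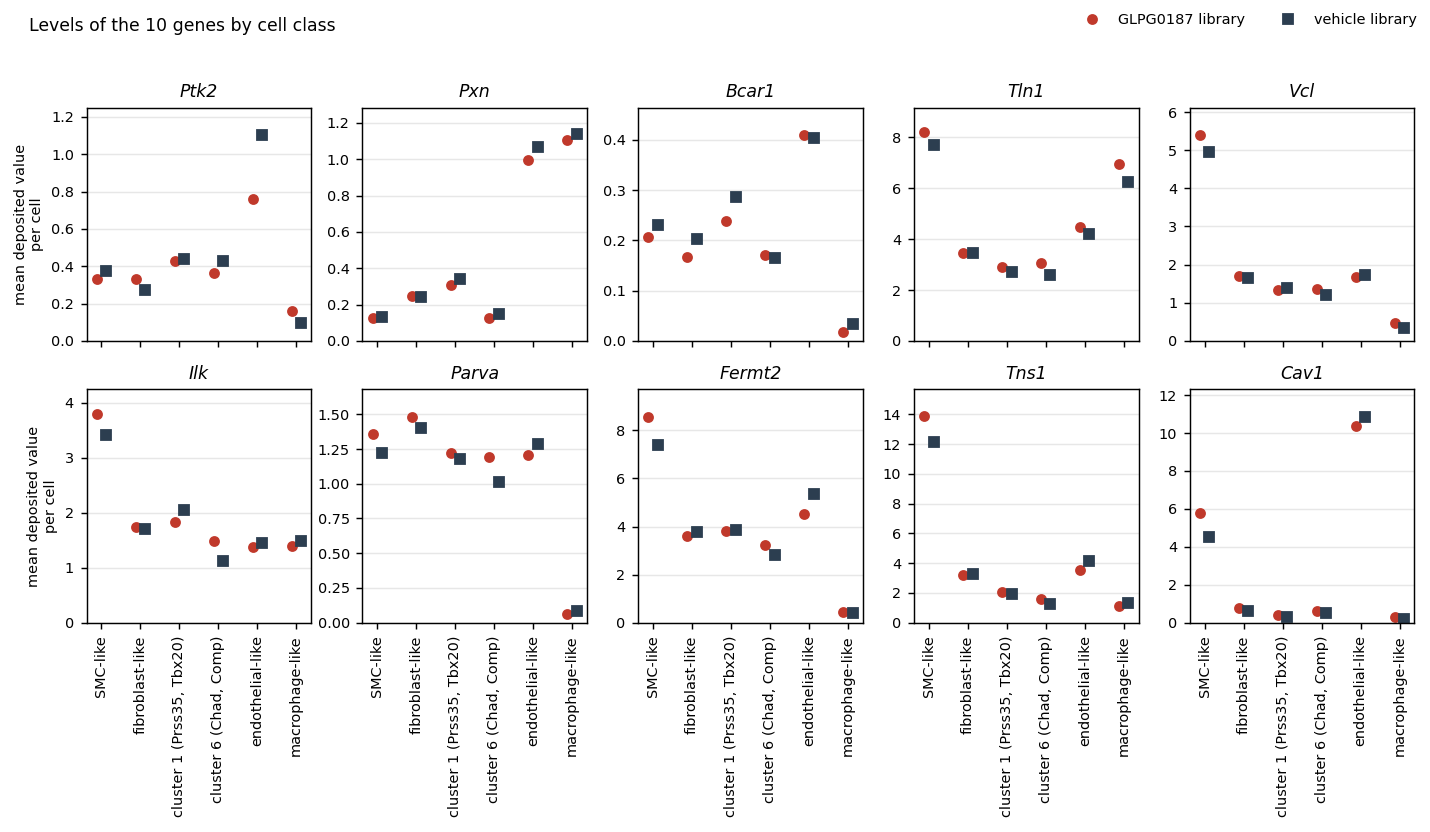
Mean deposited value per cell (vertical axis, a separate scale for each gene, starting at 0) of the 10 genes in 6 cell classes, with a circle for the GLPG0187 library and a square for the vehicle library. Tns1, Vcl, Ilk and Fermt2 stand highest in SMC-like cells, Cav1 in endothelial-like cells, and Pxn has its lowest values in SMC-like cells and cluster 6.

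Ptk2 (chr15:73205102-73423280), the kinase itself, averaged 0.758 and 1.11 in endothelial-like cells. That was 1.77-fold and 2.51-fold the level of cluster 1, the next class (0.429 and 0.440). SMC-like cells held 0.330 and 0.377, and their range overlapped that of cluster 6 above them (0.366 and 0.426) and of fibroblast-like cells below them (0.331 and 0.270). Macrophage-like cells were lowest, at 0.159 and 0.0934. The related kinase Ptk2b (Pyk2) had another order, with 0.684 and 0.835 in macrophage-like cells and 0.0288 and 0.0538 in SMC-like cells. A value of Ptk2b above 0 was found in 40.0% and 50.5% of macrophage-like cells and in 2.34% and 4.78% of SMC-like cells.

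Pxn (chr5:115506676-115555987), the paxillin scaffold that recruits the kinase, averaged 1.11 and 1.14 in macrophage-like cells and 0.994 and 1.07 in endothelial-like cells. The other 4 of the 6 larger classes were lower: cluster 1 held 0.308 and 0.340, fibroblast-like cells 0.248 and 0.243, cluster 6 0.126 and 0.149, and SMC-like cells 0.125 and 0.132. The ranges of cluster 6 and SMC-like cells overlapped. The few dendritic-like cells held 0.857 in each library. A value above 0 was present in 58.3% (95% exact binomial interval 52.9 to 63.5) and 62.6% (55.2 to 69.7) of macrophage-like cells, against 12.04% (10.5 to 13.7) and 12.1% (9.95 to 14.5) of SMC-like cells; these intervals cover counting error only. The paxillin homologues divided by class. Tgfb1i1 (Hic-5), a paxillin relative of smooth muscle, averaged 3.71 and 3.31 in SMC-like cells and 0.174 and 0.104 in macrophage-like cells, whereas Lpxn (leupaxin), a relative of blood cells, averaged 0.710 and 0.626 in macrophage-like cells and 0.000599 and 0.00957 in SMC-like cells.

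Bcar1 (chr8:111710474-111743809), the p130Cas scaffold, averaged 0.410 and 0.404 in endothelial-like cells and 0.239 and 0.286 in cluster 1. SMC-like cells held 0.207 and 0.231, and macrophage-like cells 0.0174 and 0.0330, from 5 and 6 cells with a value. Its relatives had other orders. Nedd9 was highest in cluster 6 (1.41 and 1.52) and cluster 1 (1.45 and 1.36), against 0.693 and 0.897 in SMC-like cells, and Efs was highest in cluster 1 (0.304 and 0.357), against 0.0881 and 0.121 in SMC-like cells.

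Tln1 (chr4:43531519-43562691), the integrin-activating talin, averaged 8.21 and 7.71 in SMC-like cells and 6.94 and 6.26 in macrophage-like cells, a difference of 1.18-fold and 1.23-fold. Endothelial-like cells followed with 4.49 and 4.21. Cluster 6 (3.08 and 2.61) and cluster 1 (2.90 and 2.72) were lowest and overlapped. Tln2, the second talin, was lowest in macrophage-like cells (0.0899 and 0.0824) and SMC-like cells (0.113 and 0.150).

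Vcl (chr14:20929398-21033676), the vinculin linker whose promoter letters are shown above, averaged 5.41 and 4.95 in SMC-like cells. This was 3.21-fold and 2.85-fold the level of endothelial-like cells (1.68 and 1.74), whose range overlapped that of fibroblast-like cells (1.69 and 1.66). Macrophage-like cells held 0.470 and 0.352. Tln1 and Vcl therefore had different orders, since macrophage-like cells ranked next after SMC-like cells for Tln1 and last for Vcl.

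Ilk (chr7:105736592-105742925), the scaffold of the ILK, PINCH and parvin complex, averaged 3.80 and 3.42 in SMC-like cells, 2.07-fold and 1.67-fold the level of cluster 1 (1.83 and 2.05). Its values in macrophage-like cells (1.40 and 1.48), endothelial-like cells (1.39 and 1.44) and cluster 6 (1.49 and 1.13) overlapped. Parva (chr7:112427505-112591692), its alpha-parvin partner, varied less among the 5 larger classes other than macrophage-like cells. The means were 1.48 and 1.40 in fibroblast-like cells and 1.36 and 1.22 in SMC-like cells, and the neighbouring classes from SMC-like cells down to cluster 6 (1.19 and 1.02) overlapped. Macrophage-like cells stood apart with 0.0609 and 0.0824, where 5.51% and 6.59% of cells had a value, and the few dendritic-like cells held 0 and 0.143. Parvb (beta-parvin) averaged 0.577 and 0.5 in macrophage-like cells and 0.814 and 0.683 in endothelial-like cells, against 0.00359 and 0.00718 in SMC-like cells. Parvg (gamma-parvin) averaged 0.188 and 0.225 in macrophage-like cells and was listed at 0 in the SMC-like cells of the GLPG0187 library. The PINCH gene Lims2 averaged 3.64 and 3.33 in SMC-like cells, against 1.06 and 1.42 in endothelial-like cells and less than either in the other 4 classes.

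Fermt2 (chr14:45458795-45530118), the kindlin of most adherent cells, averaged 8.58 and 7.40 in SMC-like cells, 1.89-fold and 1.38-fold the level of endothelial-like cells (4.54 and 5.37). Cluster 1 (3.83 and 3.84), fibroblast-like cells (3.62 and 3.76) and cluster 6 (3.25 and 2.80) came next. Macrophage-like cells held 0.461 and 0.401, and cluster 6 was 7.04-fold and 6.98-fold above them. Fermt3, the kindlin of blood cells, averaged 1.77 and 1.69 in macrophage-like cells and 0.00359 and 0.00239 in SMC-like cells. Of the 12 homologues whose levels are given here, 5 (Ptk2b, Lpxn, Parvb, Parvg and Fermt3) were higher in macrophage-like than in SMC-like cells in both libraries and 6 were lower (Tgfb1i1, Nedd9, Efs, Tln2, Tns2 and Cav2). Tns3 was higher in the GLPG0187 library alone. The share of all genes in either direction was not counted, so this tally has no background and describes these genes alone. For Fermt2, Parva and Ptk2 the member itself was higher in SMC-like cells; for Pxn it was not. The low macrophage-like levels of Fermt2, Vcl, Parva and Cav1 stand beside 8 SMC markers that summed to 23.0 and 11.3 per macrophage-like cell and to 716 and 610 per SMC-like cell; their part in those levels was not tested.

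**Figure D2:**
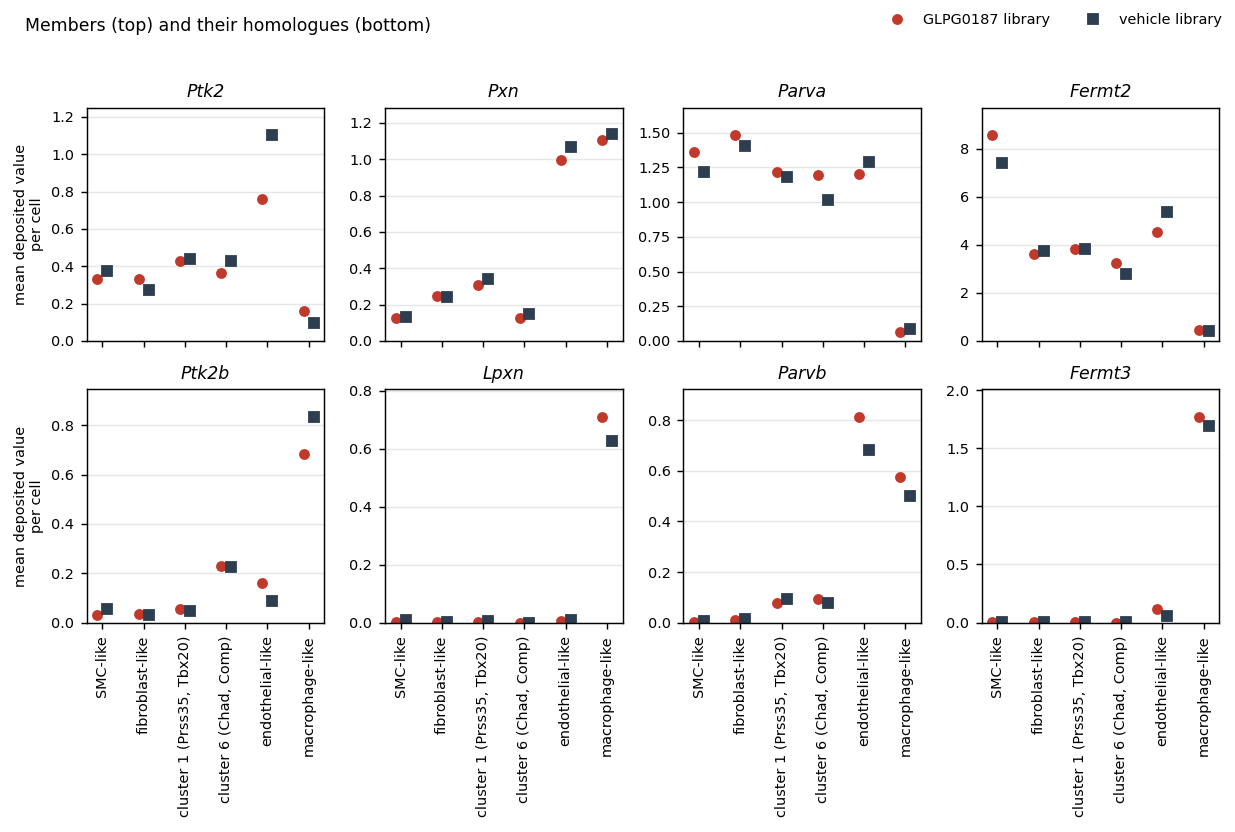
Mean deposited value per cell (vertical axis, a separate scale for each gene) of Ptk2, Pxn, Parva and Fermt2 in the upper row and of the homologues Ptk2b, Lpxn, Parvb and Fermt3 in the lower row, for 6 cell classes and 2 libraries; these homologues were chosen after their values were seen. Fermt3 and Lpxn are near 0 outside macrophage-like cells, whereas Parvb is also high in endothelial-like cells (0.814 and 0.683).

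Tns1 (chr1:73910231-74124449), the tensin that binds actin and integrin tails, averaged 13.9 and 12.1 in SMC-like cells. This was 3.95-fold and 2.93-fold the level of endothelial-like cells (3.52 and 4.12), and cluster 6 (1.61 and 1.251) overlapped macrophage-like cells (1.12 and 1.33) at the low end. The relatives had other orders: Tns2 was highest in endothelial-like cells (2.00 and 1.73), with 1.32 and 1.33 in SMC-like cells, and Tns3 was highest in cluster 6 (1.23 and 1.38), with 0.649 and 0.855 in SMC-like cells.

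Cav1 (chr6:17306335-17341452), the coat protein of caveolae, averaged 10.4 and 10.9 in endothelial-like cells and 5.77 and 4.51 in SMC-like cells. SMC-like cells were 7.50-fold and 7.17-fold above fibroblast-like cells (0.768 and 0.629). Cluster 1 (0.378 and 0.271) overlapped macrophage-like cells (0.293 and 0.181). The partner gene Cav2 had the same leading classes, at 3.16 and 3.60 in endothelial-like and 1.48 and 1.36 in SMC-like cells. The cavins of the caveolar coat differed: Cavin1 was highest in SMC-like cells (7.12 and 6.35), and Cavin2 in endothelial-like cells (21.9 and 26.1, against 0.705 and 0.675 in SMC-like cells).

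Within the endothelial-like class, cluster 9 (Fabp4, Gpihbp1; 23 and 24 cells) held more Cav1 than cluster 7 (138 and 80 cells), with 15.2 and 14.6 against 9.55 and 9.74. Cluster 7 had the lymphatic markers Mmrn1 and Lyve1 among its leading genes. Fermt2 had the same order, 6.22 and 8.54 in cluster 9 against 4.26 and 4.41 in cluster 7, and Parva the reverse, 0.913 and 0.958 against 1.254 and 1.39. Of the 2 fibroblast-like clusters, cluster 4 (Gdf10, Il6) was above cluster 2 (Clec3b, Pi16) for Vcl, Tns1 and Tln1 in both libraries. Vcl averaged 2.31 and 2.28 in cluster 4 against 1.37 and 1.39 in cluster 2, Tns1 4.21 and 4.65 against 2.69 and 2.65, and Tln1 4.30 and 4.47 against 3.03 and 3.02. The 2 clusters were close for Ptk2 (0.259 to 0.332) and for Pxn (0.234 to 0.263). In the few Schwann-like cells Fermt2 averaged 5.25 and 5.51 and Ptk2 1.58 and 0.951, and in the few dendritic-like cells Tln1 averaged 7.57 and 6.43 and Fermt2 0.143 in each library.

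The likeness of the class patterns was measured by Pearson's r of log2(mean + 0.1) over 12 points, 6 classes in 2 libraries, among 6542 genes; points of 1 library share that library and the r is a description. The genes most like Vcl were Tgfb1i1 (0.99), Cpe (0.99) and Pde3a (0.99), and those most like Tns1 were Rbpms (0.99), Pdlim7 (0.99) and Ppp1cb (0.98). Ilk was followed most closely by Lnpep (0.97), Gamt (0.97) and Ppp1r12b (0.96), Tln1 by Lsm10 (0.97), Vasp (0.96) and Stom (0.96), and Fermt2 by Rnf11 (0.99), Dip2c (0.99) and Epn2 (0.99). For Cav1 the nearest were Itgb3 (0.98), the integrin beta-3 gene, Mob2 (0.97) and Amigo2 (0.97). For Ptk2 they were Bcr (0.99), Mapk12 (0.98) and Ptprm (0.97), for Pxn Dram2 (0.99), Rac1 (0.98) and Ywhae (0.98), for Bcar1 Zfp664 (0.99), Dab2ip (0.98) and Pcmtd1 (0.98), and for Parva Mpdz (0.99), Hdgfl3 (0.99) and Nedd4 (0.99). Among the members, Vcl was close to Fermt2 (0.92) and Tns1 (0.91), and Ptk2 to Bcar1 (0.91), whereas Ptk2 and Pxn, the kinase and its scaffold, had an r of 0.0033. Macrophage-like cells were highest of the 6 classes for Pxn and lowest for Ptk2. Among the remaining classes, endothelial-like cells and then cluster 1 led for both genes.

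SMC-like cells were next divided into 6 sub-clusters, of which 1 met the rule for modulated SMC-like cells (82 cells with GLPG0187 and 151 with vehicle). Modulated cells are smooth muscle cells that have lost contractile genes and gained matrix genes, and Myh11, used to name them, averaged 11.6 and 9.17 there, while the other SMC-like cells held 52.5 and 45.9. A gene is called higher or lower when its log2 ratio is at least 0.32 in size, without a test. Of the members, 4 were lower in modulated cells in both libraries, beside 13.9% of the 8798 genes measured in both, and 2 were higher, beside 15% of them. The lower members were Ilk, Fermt2, Tns1 and Cav1 and the higher members Ptk2 and Pxn. The sub-cluster comes from the same cells and genes, so these counts are a description.

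Ilk averaged 2.30 in modulated and 3.88 in other SMC-like cells of the GLPG0187 library, and 2.21 and 3.69 in the vehicle library, a log2 ratio of -0.74 in each. Fermt2 averaged 5.45 against 8.74 and 5.40 against 7.85 (log2 ratios -0.68 and -0.53). Tns1 averaged 8.71 against 14.1 and 9.01 against 12.8 (log2 ratios -0.69 and -0.50). Cav1 had the largest difference of the members, 3.09 against 5.90 and 2.26 against 5.01 (log2 ratios -0.93 and -1.14). The level in modulated cells of either library was below the level in the other cells of both libraries for each of these 4 genes.

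Ptk2 averaged 0.573 in modulated against 0.317 in other SMC-like cells of the GLPG0187 library and 0.536 against 0.342 in the vehicle library (log2 ratios 0.88 and 0.67). Pxn averaged 0.159 against 0.123 and 0.185 against 0.12 (log2 ratios 0.47 and 0.67), from sums of 13 and 28 in the modulated cells. Vcl (log2 ratios -0.19 and -0.13) and Parva (0.14 and 0.11) lay between the limits. Tln1 was past the limit in the vehicle library alone (-0.29 and -0.37), and Bcar1 in the GLPG0187 library alone (0.39 and -0.22), where it rested on a sum of 21. The members' median log2 ratios were -0.24 and -0.29, against 0.01 and -0.03 for all genes measured in both. When each library's genes were scaled apart from the other's, which redraws the modulated sub-cluster, 1 member was lower and none higher in both libraries. That member was Cav1, with log2 ratios of -0.48 and -0.61, and Ptk2 then had 0.07 and 0.16.

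The other adhesion genes, in lists of known roles, gave these counts in modulated cells, with examples chosen after their values were seen. They stand beside 13.9% lower and 15% higher of all genes measured in both libraries. Of 23 measured actin linkers, 18 were lower in both libraries, with medians of -0.90 and -1.0, whereas Tln2 had log2 ratios of 0.62 and 0.79. Synpo2 (synaptopodin-2) had log2 ratios of -2.12 and -2.58, Flna (filamin A) -1.41 and -1.55, and Actn1 (alpha-actinin-1) -1.0 in each library. Of 10 kinases and phosphatases, 5 were higher (Fyn, Yes1, Ptpn1, Ptpn12 and Peak1) and 1, Ptpn11, was lower. The Src-family kinase Fyn, a partner of focal adhesion kinase, had 1.64 and 1.02. Scaffold adaptors were mixed, with 5 of 19 lower, among them Tgfb1i1 (-0.74 and -0.72), and 3 higher. The share higher was near the 15% of all genes, whereas the share lower was above the 13.9% of all genes. All 3 measured partners of ILK were lower, among them Lims2 (-1.02 and -0.97). Of 7 caveola genes, 5 were lower, among them Cavin1 (-0.72 and -0.58), whereas Cav2 had 0.00 and -0.07. Tns3 was higher (0.96 and 0.98), the reverse of Tns1. Ptk2b was under the minimum for a ratio, with means of 0.232 and 0.225 in modulated and 0.0183 and 0.0161 in other SMC-like cells.

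**Figure D3:**
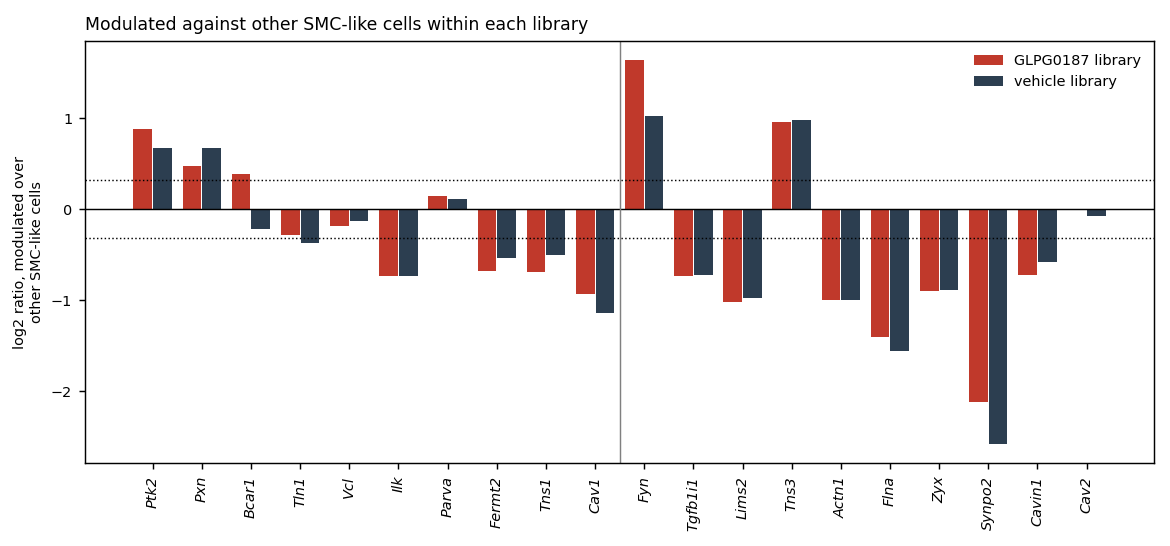
Log2 ratio of modulated over other SMC-like cells (vertical axis) within the GLPG0187 library (first bar) and the vehicle library (second bar), for the 10 members left of the vertical line and 10 other adhesion genes right of it, the latter chosen after their values were seen. Dotted lines mark a log2 ratio of 0.32 either way; Ilk, Fermt2, Tns1 and Cav1 lie below the lower line and Ptk2 and Pxn above the upper line in both libraries.

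The remaining SMC-like cells varied less. Sub-clusters 0 (Hspa1a; 697 and 254 cells), 1 (Acan, Igfbp2; 490 and 211 cells) and 2 (Cpxm2, Tnnt2; 300 and 170 cells) had Ilk values between 3.21 and 4.05 and Tns1 values between 11.2 and 14.2. Cells of the remaining 2 came mostly from 1 library. Sub-cluster 4 (Isl1, Rgs5) had 99 and 16 cells, with Fermt2 at 10.9 and 9.12. Sub-cluster 5 (Ablim1, Kcnk3) had 1 and 34 cells, and its 34 vehicle cells averaged 10.7 for Cav1, against 5.02, 4.74 and 4.26 in sub-clusters 0, 1 and 2 of that library. Of those 34 cells, 31 had Xist and no Y-linked value (Xist-only cells); Y-only cells are the reverse, and the pools held mice of both sexes.

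**Figure D4:**
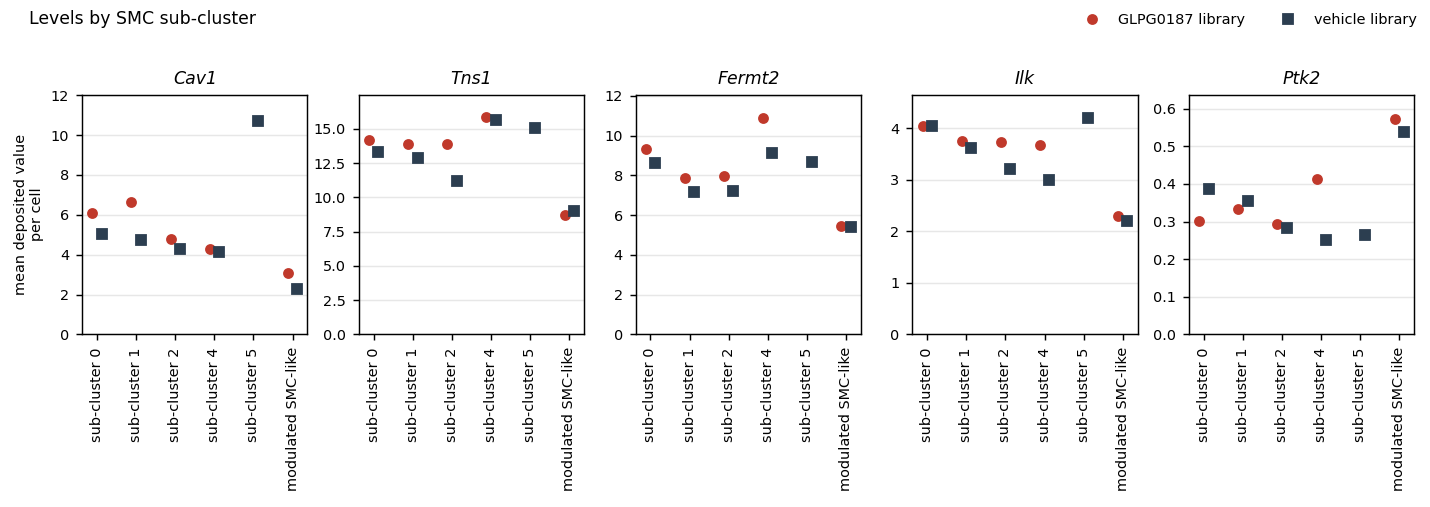
Mean deposited value per cell (vertical axis, a separate scale for each gene) of Cav1, Tns1, Fermt2, Ilk and Ptk2 in the SMC sub-clusters, with circles for the GLPG0187 library and squares for the vehicle library; a sub-cluster with fewer than 10 cells in a library is not drawn. Modulated SMC-like cells are lowest for Cav1, Tns1, Fermt2 and Ilk and highest for Ptk2, and the vehicle cells of sub-cluster 5 are highest for Cav1 at 10.7.

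Between treatments, SMC-like cells gave 1 member past the limit of 0.32, Cav1, which was higher in the GLPG0187 library. It averaged 5.77 there and 4.51 with vehicle, a log2 ratio of 0.36, above that of 98.0% of the measured genes. Of the 10749 genes measured in SMC-like cells, 2.61% were higher by this size, 10.1% lower and 12.7% either way, so 1 of 10 members either way is near the background. The other 9 members lay between the limits, and the members' median log2 ratio was 0.14, against -0.04 for all measured genes. By any amount, 7 of the 10 were above 0, where 38.2% of all measured genes were.

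The 7 genes above 0 were Cav1 and 6 genes that link integrins to actin. Fermt2 averaged 8.58 with GLPG0187 and 7.40 with vehicle (log2 ratio 0.22), Tns1 13.9 and 12.1 (0.20), and Parva 1.36 and 1.22 (0.16). Ilk averaged 3.80 and 3.42 (0.15), Vcl 5.41 and 4.95 (0.13) and Tln1 8.21 and 7.71 (0.09). The kinase and its scaffolds were below 0, with log2 ratios of -0.19 for Ptk2 (0.330 and 0.377), -0.16 for Bcar1 (0.207 and 0.231) and -0.08 for Pxn (0.125 and 0.132). The same 3 genes had the lowest share of SMC-like cells with a value, from 12.04% to 31.5%. The direction of Pxn depended on the cells used, with log2 ratios of 0.03 without modulated cells and 0.02 in cluster 0 alone.

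Modulated cells made up different parts of the SMC-like class, 82 of 1669 cells and 151 of 836 cells. Without them, no member was past the limit, beside 10.6% of genes either way (2.4% higher and 8.19% lower), and Cav1 had a log2 ratio of 0.24 (5.90 and 5.01). The Cav1 ratio also varied between Xist-only and Y-only cells and among sub-clusters. The log2 ratio was 0.15 in Xist-only cells (6.11 and 5.57) and 0.50 in Y-only cells (5.81 and 4.10). Without sub-clusters 4 and 5, an alternative added after seeing the data, it was 0.46 in all cells and 0.41 in the Xist-only cells. It was 0.29 in sub-cluster 0, 0.49 in sub-cluster 1, 0.16 in sub-cluster 2 and 0.45 in modulated cells. Cav1 was thus above 0 in each of these groups, on either side of the limit. Of the other members measured within these sub-clusters, only Ptk2 passed the limit, in sub-cluster 0 (0.301 and 0.386, log2 ratio -0.35). Ptk2 had -0.10 in sub-cluster 1, 0.04 in sub-cluster 2 and 0.11 in modulated cells. The share of all genes past the limit in sub-cluster 0 was not counted. Endothelial markers, which mark the class with most Cav1, summed to 0.205 and 0.249 per SMC-like cell over 7 genes, none of them at 0, and to 47.5 and 46.7 per endothelial-like cell.

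**Figure D5:**
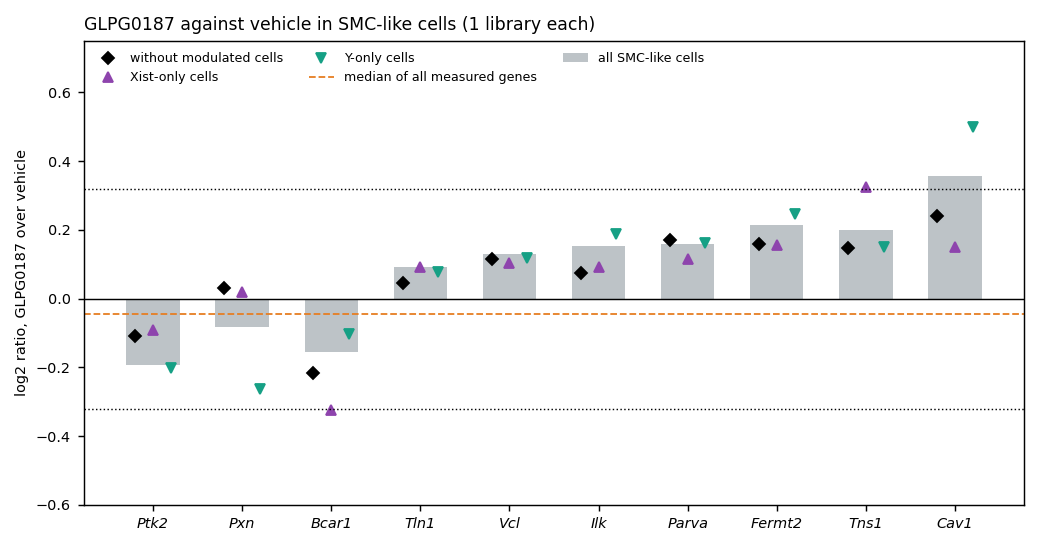
Log2 ratio of the GLPG0187 over the vehicle library in SMC-like cells (vertical axis) for the 10 genes: grey bars for all SMC-like cells, diamonds without modulated cells, upward triangles for cells with Xist and no Y-linked value and downward triangles for the reverse. The dashed line is the median of all measured genes (-0.04) and dotted lines mark 0.32 either way; Cav1 is the 1 gene whose bar passes the upper line. The Pxn value of Xist-only cells rests on a sum of 86, under the minimum of 100.

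In SMC-like cells the rest of the pathway was near the background past the limit, and its lists differed in direction. Of 67 other measured adhesion genes, 3 were higher and 7 lower, near the shares of all measured genes (2.61% higher and 10.1% lower). By any amount, 41 of the 67 were above 0, where 38.2% of all measured genes were. Their median log2 ratio was 0.06, against -0.04 for all measured genes. Actin linkers had a median of 0.21, with 20 of 24 above 0, 2 higher and 1 lower; without modulated cells the median was 0.11. Among 11 kinases and phosphatases 2 were lower and none higher (median -0.11), and among 19 scaffold adaptors 3 were lower and 1 higher (median -0.03). Caveola genes lay at a median of 0.12 with none of 7 past the limit, among them Cav2 (0.12), and the 4 measured partners of ILK a median of 0.08. Of genes with a mean of at least 0.5, those past the limit were Flnc (filamin C; 1.20 and 0.890, log2 ratio 0.44), Tes (testin; 0.949 and 0.717, 0.41) and Sorbs2 (3.09 and 2.47, 0.33) among the higher genes. Tns3 (0.649 and 0.855, log2 ratio -0.39) and Nedd9 (0.693 and 0.897, -0.37) were the lower ones. The markers of modulated SMC stood at a sum of 34.4 and 44.5 per SMC-like cell, with 7 of 12 lower in the GLPG0187 library and 2 higher, and their part in these values was not tested.

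In the other classes, 45 pairs of a member and a class were measured, of which 5 were higher and 1 was lower in the GLPG0187 library. In fibroblast-like cells none of 10 members passed the limit, beside 14.3% of genes (7.03% higher and 7.27% lower), and the nearest were Bcar1 (log2 ratio -0.30), Ptk2 (0.28) and Cav1 (0.28). In cluster 1 Cav1 was higher (0.378 and 0.271, log2 ratio 0.49), 1 of 10 beside 13.3% of genes either way (4.67% higher and 8.6% lower). Cav1 there was above 0 both in the Xist-only cells (0.44) and the Y-only cells (0.84).

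In cluster 6, 2 of 8 measured members were higher and none lower, beside 19.3% of genes either way (13% higher and 6.26% lower). They were Ilk (1.49 and 1.13, log2 ratio 0.40) and Tns1 (1.61 and 1.251, 0.37), where the median of all genes was 0.06. Ilk had 0.34 in the Y-only cells of cluster 6 and was under the minimum sum of 100 in the Xist-only cells. Tns1 had 0.23 in the Y-only cells, inside the limit, and was also under the minimum sum in the Xist-only cells.

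In macrophage-like cells 2 of 7 measured members were higher, beside 28.4% of genes either way (15.4% higher and 13% lower). Cav1 averaged 0.293 and 0.181 (log2 ratio 0.64, from sums of 101 and 33) and Vcl 0.470 and 0.352 (0.38). Cav1 was under the minimum sum of 100 in the Xist-only cells and in the Y-only cells taken apart. SMC markers in macrophage-like cells summed to 23.0 and 11.3 and all 7 measured ones were higher in the GLPG0187 library, and their part in the Cav1 and Vcl values was not tested. Bcar1, Parva and Ptk2 were under the minimum there, as were Bcar1 and Pxn in cluster 6.

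In endothelial-like cells 1 of 10 members, Ptk2, was lower, beside 28% of genes either way (14.2% higher and 13.9% lower). Ptk2 averaged 0.758 and 1.11, a log2 ratio of -0.57 from sums of 122 and 115. It had -0.76 in the Y-only cells (82 and 56 cells) and averaged 0.739 and 1.10 in cluster 7, while the sums in the Xist-only cells and in cluster 9 were under the minimum. A value above 0 was found in 44.7% (36.9 to 52.7) and 51.9% (41.9 to 61.8) of the cells, intervals that overlap. Cav1, the member with its highest level in this class, had a log2 ratio of -0.09 there (10.4 and 10.9). This value differed in sign between subsets, with 0.24 in the Xist-only cells and -0.17 in the Y-only cells. In the Y-only cells Tns1 (-0.46) and Fermt2 (-0.38) also passed the lower limit, whereas they had 0.11 and -0.23 in the Xist-only cells. Over all endothelial-like cells only Tln1 of the 10 members was above 0, where 48.4% of genes were. The members' median was -0.10, and 12 of 56 other adhesion genes were lower and 1 higher. Fibroblast markers summed to 29.7 and 16.8 per endothelial-like cell, with 5 of 7 measured ones higher in the GLPG0187 library, and their part in these values was not tested.

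Within the modulated cells, 1 member of the 8 measured was higher in the GLPG0187 library, beside 19.4% of genes either way (8.11% higher and 11.3% lower). It was Cav1 (3.09 and 2.26, log2 ratio 0.45), and the other 7 lay between -0.05 for Tns1 and 0.20 for Parva. Cav1 was therefore above 0 in SMC-like cells, the modulated cells among them, in fibroblast-like and macrophage-like cells and in clusters 1 and 6. It was near 0 in endothelial-like cells (-0.09). SMC markers in fibroblast-like cells summed to 34.6 and 27.6 per cell, with 3 of 8 measured ones higher in the GLPG0187 library and none lower. These markers were not summed for clusters 1 and 6. Their part in the Cav1 values was not tested. The difference between the classes was not tested.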

How the data were processed

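The 2 libraries, 1 per treatment, were made with 10x Genomics 3' version 3 chemistry. The authors deposited a whole number for each gene in each cell, used here as a depth-corrected score and not as UMI counts, because totals per cell varied by only 5.69% and 5.81% (coefficient of variation). Cell Ranger, Seurat and mm10 are named without versions per the submitters' processing notes, and no source used here describes the adjustment, so the raw depth is unknown and no count model or counting interval of a level was used. Gene positions are from GENCODE M21 (GRCm38, the build mm10).

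No cell fell below 200 genes or above 20% mitochondrial values. Scrublet in scanpy 1.11.5 removed 48 cells (1.09%) and 16 cells (0.540%); doublets are harder to find in evened values. Values scaled to 10000 per cell were logged, and 2000 variable genes, 30 principal components and 20 neighbours entered Leiden clustering (leidenalg 0.10.2, igraph 0.11.9) at resolution 0.5. A cluster was named when at least 3 and 80% of a class's markers were detected in 25% of its cells at over 3 times the median cluster, with at least 1 own marker and no more of another class among its 10 leading genes. A modulated sub-cluster had 50% of the modulated markers at least 1.5-fold above other SMC-like cells and lower Myh11. These naming thresholds were set after seeing the data.

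Values were summed per class and library, 1 was added, and sums were divided by the class total. Genes with a sum of at least 100 over the groups compared were measured. Classes with at least 50 cells per library were compared; shares carry exact Clopper-Pearson 95% intervals. Cells with Xist and no Y-linked value, and the reverse, are separate animals of the pools. No p-value was computed, since cells are not replicates. The members and lists were chosen with earlier results of these data known. Genes named by rule are the members, their homologues and the 3 genes most like each member. The rule also took other adhesion genes with a mean of at least 0.5 past the limit in SMC-like cells (at most 12). Adhesion genes outside this rule were also named, as examples not fixed beforehand, as genes called in modulated cells or as genes with a CArG box (Trip6 and Rsu1). Fermt1 was not analysed here, and 1 gene of the lists is not reported by name. The scripts were checked on simulated data and used numpy 2.4.6, scipy 1.17.1, pandas 2.3.3 and scikit-learn 1.9.0 in Python 3.11.15, with matplotlib 3.10.9 for plots. Alternatives covered the added constant, scaling, filter, doublets, resolution, clustering, sex and sub-clusters.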

Additional observations from a re-analysis of the deposited data

How the results depend on the processing

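No paired analysis was possible because each group has 1 library, and for the same reason no replicate could be left out. Raw depth is unknown, and ratios of genes with low sums are the least precise. Of 263 settings of a single gene, 206 moved its log2 ratio by less than 0.1, 56 by more and 1 changed the sign of a ratio past the limit: Bcar1 in modulated against other SMC-like cells of the GLPG0187 library went from 0.39 to -0.15 with genes scaled within each library. Ratios inside the limit changed sign in 5 settings: Pxn in SMC-like cells (-0.08) was 0.04 at resolution 1.0, 0.03 without modulated cells and 0.02 in cluster 0 alone, and Bcar1 in modulated cells of the vehicle library (-0.22) was 0.07 with a pseudocount of 10 and 0.08 with doublets kept. In SMC-like cells the count of members higher (1) was 0 at resolution 1.0, 0 without modulated cells, 0 in cluster 0 alone and 2 in Xist-only cells without sub-clusters 4 and 5, and the count lower (0) was 1 in Xist-only cells (Bcar1, -0.32). The count higher stayed at 1 in Xist-only cells, but the member there was Tns1 (0.32) in place of Cav1 (0.15). Other adhesion genes higher (3) were 7 with median-of-ratios scaling, 7 with genes scaled within each library, 5 in Y-only cells, 0 at resolution 1.0 and 0 without modulated cells. Those lower (7) were 11 without the filter, 4 without modulated cells and 4 in Xist-only cells, and the actin linker median (0.21) was 0.11 without modulated cells. In other classes, pairs higher (5 of 45) were 2 of 30 in Xist-only cells, and pairs lower (1) were 3 of 50 without the filter and 5 of 43 in Y-only cells. In modulated cells, members lower in both libraries (4) were 1 and members higher (2) were 0 with genes scaled within each library, and the GLPG0187 median (-0.24) was -0.12 there and -0.34 with doublets kept. The cause of these shifts was not tested. The alternatives without sub-clusters 4 and 5 and in cluster 0 alone were chosen after seeing the data.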
